A study of Mus musculus with 17 samples.

Results

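Cells answer broken or stalled DNA with a phosphorylation cascade, and 9 genes of that cascade were followed here through mouse spermatogenic cells with and without *Nat10*, the gene for the writer of the RNA mark N4-acetylcytidine (ac4C). The 9 were the sensor kinases *Atm* and *Atr*, the ATR partner *Atrip*, the ATR activator *Topbp1*, the effector kinases *Chek1* and *Chek2*, and the mediators *Mdc1*, *Rnf8* and *Brca1*. They were taken by symbol from the 23282 genes of the table, and all 9 were present and passed the filter on low values in every comparison. ATM answers double-strand breaks and phosphorylates CHEK2, whereas ATR is brought by ATRIP to single-stranded DNA, is switched on by TOPBP1 and phosphorylates CHEK1. In meiotic prophase the same kinases follow programmed breaks and unsynapsed chromosomes, where BRCA1, ATR, TOPBP1 and MDC1 spread the phosphorylated histone H2AX over the sex chromosomes, and MDC1 recruits the ubiquitin ligase RNF8 to marked chromatin.

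The cells, from mice labelled C57BL/6 (C57BL/6J in the study's methods), had been sorted on Hoechst and propidium iodide fluorescence as spermatogonia (SPG), spermatocytes about to enter meiosis (pre-leptotene, PreL) and spermatocytes of leptotene and zygotene (LZ). Each of the 6 groups had 3 libraries, except WT LZ, which had 2. WT samples were labelled Wildtype, and SKO samples Stra8-cre_Nat10_KO: the study describes *Nat10* fl/- mice that carry a *Stra8-GFPCre* knock-in, so that 1 *Nat10* allele was absent from every cell and the other lost its floxed exons in germ cells once *Stra8* was expressed. The age of the animals sorted for RNA-seq is not given in the sources used here, nor is whether replicates were separate animals, so p-values measure the spread between these libraries. In sorted bulk RNA, fewer cells of a type and less RNA per cell cannot be told apart.

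The libraries held 5812380 to 13820953 assigned reads, and the SKO LZ libraries were the shallowest, at 5812380 to 7609420. *Nat10* stood at 8.98 RPKM (RPM per kilobase of the principal transcript, where RPM are reads set to a library total of 1000000) in WT SPG and 4.92 in SKO SPG, 8.14 and 3.38 in PreL, and 7.31 and 2.01 in LZ. The sorts did not hold the same cells in both genotypes by their markers. A list of 10 spermatid genes summed to 640 to 1060 RPM in WT LZ and to 7.22 to 9.81 RPM in SKO LZ, and 12 late spermatocyte genes to 3930 to 7010 and 197 to 203 RPM. In SPG and PreL the spermatid list stood at 115 to 1010 RPM in WT and 4.45 to 15 RPM in SKO, and the 8 Leydig cell genes at 5.61 to 17.7 RPM in WT and 40.8 to 462 RPM in SKO. In LZ the Leydig list stood at 20.9 and 57.6 RPM in WT and 81.9 to 234 in SKO, with 6 of 8 called higher, and 8 macrophage genes at 2.03 and 4.68 and 6.88 to 34.2 RPM, with 4 of the 4 tested called higher. Of all genes tested in LZ, 25.8% were called lower in SKO and 13.4% higher. Of 16 early meiotic genes, 4 were called lower in SKO LZ, a share no higher than that background, and 0 were called higher. Of their log2 fold changes 12 were negative, with a median of −0.67, against −0.13 over all genes tested. The 2 WT LZ libraries differed in the Sertoli list, at 404 and 1640 RPM. In PreL this list stood at 233 to 268 RPM in WT and 263 to 1320 in SKO. There 3 of the 7 Sertoli genes tested were called higher in SKO, beside 5.32% of all genes. Among the spermatid markers, *Acrv1* and *Odf1* were at 0 reads in SKO LZ. The 10 markers of undifferentiated spermatogonia reached only 8.6 to 27.4 RPM in the SPG libraries, against 18.7 to 72.1 in PreL and 61.1 to 116 in LZ. The 8 markers of differentiating spermatogonia stood at 798 to 1220 RPM in SPG and 532 to 708 in LZ. The 16 early meiotic genes already summed to 5230 to 7150 RPM in SPG, against 7010 to 8400 in WT LZ and 4230 to 6300 in SKO LZ. The stage names used here are therefore those of the sorts. The part these cell differences had in the values of the 9 genes was not tested.

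Promoter windows of 4 of the genes are shown first, from 250 bases before to 50 after the RefSeq start site on GRCm38.p6, because *Chek2* and *Atrip* gave the 2 calls between genotypes and *Topbp1* and *Mdc1* share a motif with *Chek2*. Capitals mark an E2F-type match (TTTCCCGC, TTTGGCGC, TTTCGCGC or TTTGCCGC on either strand) in *Chek2*, *Topbp1* and *Mdc1*, and a STRA8-type match (CNCCTCAG on either strand) in *Atrip*.
*Chek2*, chr5:110839733-110840032, plus strand: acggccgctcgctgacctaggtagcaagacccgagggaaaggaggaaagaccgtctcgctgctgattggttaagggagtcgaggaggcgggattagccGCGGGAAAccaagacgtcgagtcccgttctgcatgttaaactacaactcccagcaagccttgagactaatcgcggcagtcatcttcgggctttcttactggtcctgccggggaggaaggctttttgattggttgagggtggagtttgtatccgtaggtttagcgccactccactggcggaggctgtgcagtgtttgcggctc
*Topbp1*, chr9:103305077-103305376, plus strand: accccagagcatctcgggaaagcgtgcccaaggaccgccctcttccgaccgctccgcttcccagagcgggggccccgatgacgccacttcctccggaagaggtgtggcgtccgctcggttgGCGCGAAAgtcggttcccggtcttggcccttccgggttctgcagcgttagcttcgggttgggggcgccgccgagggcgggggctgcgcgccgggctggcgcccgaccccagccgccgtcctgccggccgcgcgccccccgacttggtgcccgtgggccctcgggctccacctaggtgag
*Mdc1*, chr17:35841248-35841547, plus strand: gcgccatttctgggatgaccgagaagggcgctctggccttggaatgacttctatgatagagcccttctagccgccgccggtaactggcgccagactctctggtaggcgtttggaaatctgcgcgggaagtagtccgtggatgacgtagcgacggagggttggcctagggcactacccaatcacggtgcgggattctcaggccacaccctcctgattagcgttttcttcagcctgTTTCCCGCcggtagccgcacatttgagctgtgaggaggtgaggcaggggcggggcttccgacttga
*Atrip*, chr9:109074075-109074374, minus strand: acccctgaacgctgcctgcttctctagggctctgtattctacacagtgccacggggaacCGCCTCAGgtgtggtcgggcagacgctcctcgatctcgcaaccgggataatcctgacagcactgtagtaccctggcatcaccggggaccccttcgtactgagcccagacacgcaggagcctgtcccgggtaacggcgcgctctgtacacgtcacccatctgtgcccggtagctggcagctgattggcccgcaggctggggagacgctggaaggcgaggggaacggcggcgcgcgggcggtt
The E2F-type letters began 152 bases before the start site in *Chek2*, 129 before it in *Topbp1* and 16 before it in *Mdc1*, and 2.26% of 32851 mouse promoter windows of this length held such a match. The window of *Chek1* ended in gcgggaa, so an E2F-type match running past its edge could not be seen. The STRA8-type letters lay 191 bases before the start site of *Atrip*, and 7.94% of windows held them. The windows of *Atm*, with 2 matches, and of *Rnf8* held an NRF1-type match, found in 4.6% of windows, and none of the 9 held TGACGTCA or CACGTG, found in 1.79% and 7.15%. CCAAT on either strand was in the windows of 6 of the 9 (*Atm*, *Atrip*, *Mdc1*, *Chek2*, *Brca1*, *Rnf8*) and in 37.4% of all windows. The motifs were chosen after the expression values had been seen, and a match is a run of letters, not a bound site. The 9 genes lie on chromosome 9 (*Atm*, *Atr*, *Atrip*, *Topbp1*, *Chek1*), 17 (*Mdc1*, *Rnf8*), 5 (*Chek2*) and 11 (*Brca1*).

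Per kilobase of the principal transcript, *Atr* was the highest of the 9 transcripts in every WT stage, with 41.1 ± 2.04 RPKM in SPG, 59.3 ± 2.38 in PreL (SD, n = 3 each) and 75.7 ± 12 in LZ (n = 2). *Topbp1* came second, at 40.3, 45.8 and 27.3 RPKM, and its libraries overlapped those of *Atr* in SPG only. *Chek1* and *Atm* followed in SPG and PreL, at 28.1 and 20.2 RPKM in WT SPG and 28.2 and 25.1 in WT PreL. *Atrip*, whose protein is the obligate partner of ATR, was among the lowest throughout, at 6.01, 7.41 and 8.15 RPKM in the WT stages. In WT LZ *Mdc1* was the third at 20.7 RPKM and *Brca1* was last at 5.93. The order in SKO began as in WT in SPG and PreL, with *Atr* at 41.7 and 68.3 RPKM. In SKO LZ it did not: *Chek2* led at 41.2 ± 5.51 RPKM, with *Atr* and *Topbp1* both at 32.5, and these 3 overlapped from 1 to the next, while *Atrip* was last at 2.27 ± 1. These orders depend on the length used. All exons of *Atr* together span 23629 bases, against 8102 in its principal transcript. For *Topbp1* these lengths are 11226 and 5224, for *Atm* 10338 and 9787, and for *Chek1* 4635 and 3797. The first place of *Atr* in WT therefore holds for the principal transcript only.

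Across genotypes and stages the levels below are normalised read counts, the deposited values rescaled over all 17 libraries so that the typical gene is level.

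**Figure D1:**
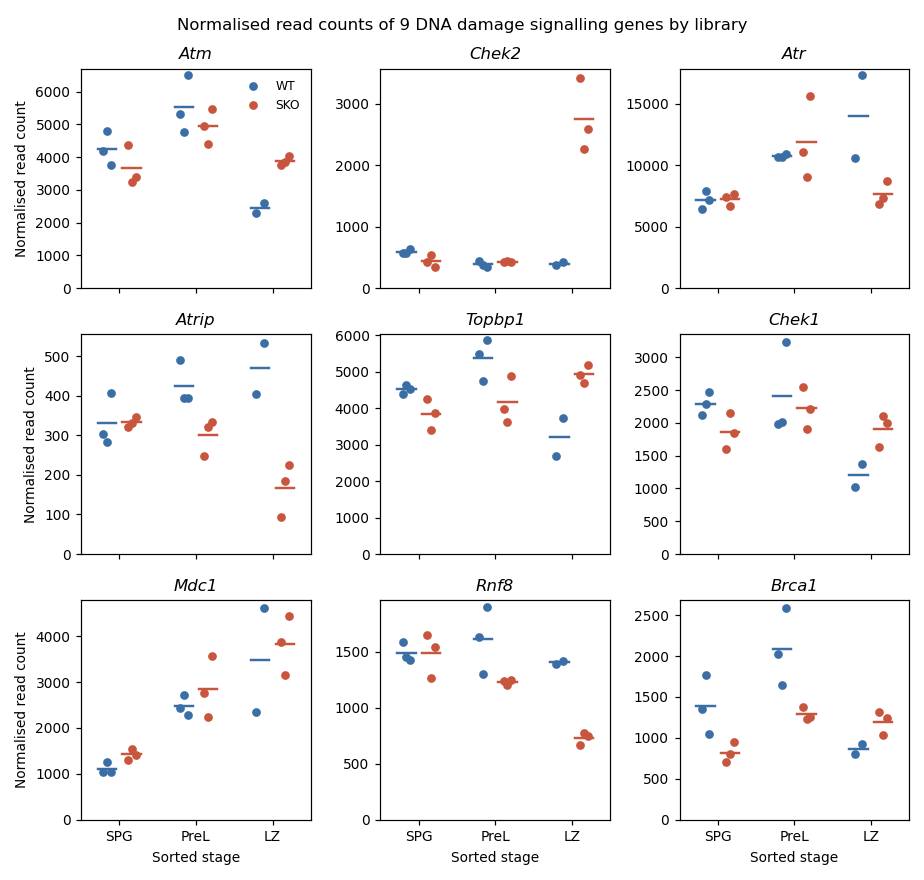
Normalised read counts (vertical axis, linear from 0) of each of the 9 genes in the 17 libraries, by sorted stage (horizontal axis) and genotype (WT blue, SKO red); points are libraries and short lines group means. The 3 SKO LZ libraries hold 2270 to 3420 normalised reads of *Chek2*, and the other 14 libraries at most 646.

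The ATM arm was examined first. *Chek2* held 567 to 646 normalised reads in the 3 WT SPG libraries, 354 to 446 in WT PreL, and 383 and 422 in WT LZ. In SKO it held 351 to 536 in SPG and 420 to 444 in PreL, and then 3420, 2270 and 2590 in LZ. The SKO LZ libraries thus stood above all the others, with no overlap. Against WT LZ, *Chek2* was 6.79-fold higher (log2 fold change 2.73, SE 0.22, adjusted p = 8.03e-05), and 13.4% of the 13724 genes tested were called higher there (adjusted p under 0.05 and a log2 fold change beyond 1 in size). Raw reads of *Chek2* numbered 619 to 641 in SKO LZ and 228 and 272 in the deeper WT LZ libraries, so the direction held before any scaling. With each LZ library left out in turn the log2 fold change stayed between 2.57 and 2.87 and the call remained.

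*Atm*, the kinase upstream of CHEK2, behaved otherwise. It held 3760 to 4800 normalised reads in WT SPG, 4760 to 6490 in WT PreL, and 2290 and 2610 in WT LZ. In SKO it held 3250 to 4360, 4410 to 5480 and 3760 to 4030. WT LZ was thus the lowest group, and the SKO LZ libraries lay above both of its libraries. In LZ the log2 fold change between genotypes was 0.65 (SE 0.15, adjusted p = 0.00913), which passed the p threshold but not the fold threshold, and without SKO LZ replicate 3 the adjusted p was 0.0551. It was 0.26 (adjusted p = 0.13) once trends of transcript length and GC content were removed.

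In the ATR arm, *Atr* held 6460 to 7880 normalised reads in WT SPG, 10700 to 10900 in WT PreL, and 10600 and 17300 in WT LZ. In SKO it held 6670 to 7640 in SPG, 9040 to 15600 in PreL and 6870 to 8720 in LZ. The WT LZ pair differed widely, yet both stood above the 3 SKO LZ libraries. The difference was −0.85 on the log2 scale (SE 0.24, adjusted p = 0.0223), again short of the fold threshold. Without WT LZ replicate 3 it was −0.5 (adjusted p = 0.111), without WT LZ replicate 2 it was −1.24 (adjusted p = 0.0147, called), and without SKO LZ replicate 1 or 2 the adjusted p was 0.0748 or 0.0734. With all libraries and trends of transcript length and GC content removed, *Atr* stood at −1.31 and was called. Exons of *Atr* overlap 2 antisense gene models by 726 and 462 bases and an snRNA model by 178, and without strand their reads could not be told apart.

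*Atrip* was the other call between genotypes. It held 405 and 533 normalised reads in WT LZ and 92.6, 184 and 226 in SKO LZ, from 288 raw reads in each WT library and 17, 52 and 54 in SKO. The groups did not overlap, and *Atrip* was lower in SKO by 1.55 on the log2 scale, a ratio of 0.352 (log2 fold change −1.55, SE 0.43, adjusted p = 0.0182, against 25.8% of genes called lower). The call rested on both WT libraries: the adjusted p was 0.0919 without WT LZ replicate 2 and 0.178 without replicate 3, with log2 fold changes of −1.79 and −1.36. Exons of *Atrip* share 1147 bases with *Trex1* on the same strand, so reads there could not be assigned to 1 of the genes with certainty. In PreL *Atrip* held 393 to 490 normalised reads in WT and 247 to 333 in SKO, without overlap (log2 fold change −0.49, SE 0.22, adjusted p = 0.155), and in SPG 284 to 406 and 322 to 346.

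*Topbp1* and *Chek1* went the other way in LZ. *Topbp1* held 2690 and 3730 normalised reads in WT LZ and 4690 to 5200 in SKO LZ (log2 fold change 0.62, adjusted p = 0.0265). *Chek1* held 1020 and 1380 in WT LZ and 1630 to 2110 in SKO LZ (log2 fold change 0.67, adjusted p = 0.0285). Neither pair of groups overlapped and neither reached the fold threshold. As RPKM the *Chek1* groups did overlap, at 13.8 and 14.3 in WT LZ and 13.6 to 20.7 in SKO LZ. Leaving out any SKO LZ library put the adjusted p of *Topbp1* above 0.05 (0.0624 to 0.0966), and leaving out WT LZ replicate 2 or SKO LZ replicate 2 or 3 did so for *Chek1* (0.0977 to 0.14).

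Among the mediators, *Rnf8* held 1390 and 1420 normalised reads in WT LZ and 664 to 772 in SKO LZ, a clear separation. Its log2 fold change of −0.96 (SE 0.18, adjusted p = 0.00318) was just short of the fold threshold and kept an adjusted p of at most 0.0184 under all 18 alternative settings, and *Rnf8* was called without WT LZ replicate 2 (−1.02). *Rnf8* shares 1542 exon bases with the gene model Gm28043 on the same strand. *Mdc1*, the scaffold bound to phosphorylated H2AX, did not separate in LZ: 2350 and 4610 normalised reads in WT and 3160 to 4430 in SKO (log2 fold change 0.19, SE 0.3, adjusted p = 0.631). *Brca1* held 807 and 922 in WT LZ and 1040 to 1320 in SKO LZ (log2 fold change 0.45, adjusted p = 0.0875), and 5.54 to 6.32 against 5.9 to 6.5 as RPKM, which overlapped.

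In all, 2 of the 9 genes were called between genotypes in LZ, *Chek2* higher and *Atrip* lower, beside 39.1% of the genes tested, so the share of calls was no higher than the background. The groups did not overlap for 8 of the 9, with 5 higher in SKO (*Atm*, *Topbp1*, *Chek1*, *Chek2*, *Brca1*) and 3 lower (*Atr*, *Atrip*, *Rnf8*), where 30.3% and 39.8% of all tested genes separated in these directions. The median log2 fold change of the 9 was 0.45, against −0.13 over all genes tested.

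**Figure D2:**
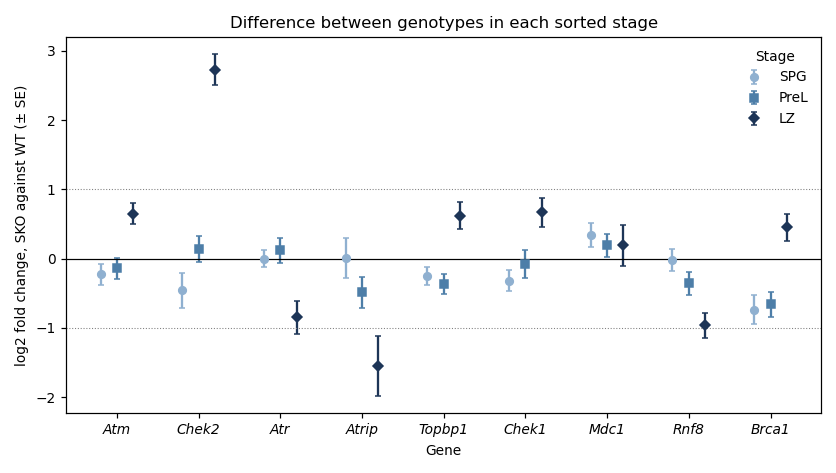
log2 fold change of SKO against WT (vertical axis, bars are the standard error) for each gene in SPG, PreL and LZ; dotted lines mark the fold threshold at −1 and 1. *Chek2* at 2.73 and *Atrip* at −1.55, both in LZ, lie outside the dotted lines.

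Before LZ the genotypes lay closer together. None of the 9 was called in SPG or in PreL, where limma called 6.02% of 12846 genes (2.06% lower, 3.95% higher) and 11.1% of 13132 genes (5.83% lower, 5.32% higher). At an unadjusted p under 0.05 there were 1 and 3 of the 9, and edgeR and DESeq2 called 0 in both stages. *Brca1* was the exception to the small differences. It held 1350, 1770 and 1050 normalised reads in WT SPG and 709, 805 and 948 in SKO SPG, and 2030, 1640 and 2590 in WT PreL and 1380, 1230 and 1250 in SKO PreL. All SKO libraries thus lay below all WT libraries of the same stage, as they did for 14.4% of genes in SPG and 20% in PreL. The log2 fold changes were −0.74 in SPG (SE 0.21, adjusted p = 0.0404) and −0.66 in PreL (SE 0.18, adjusted p = 0.031), both short of the fold threshold. The adjusted p rose above 0.05, to at most 0.139, without any SPG library other than WT replicate 3, and, to at most 0.0904, without any PreL library other than WT replicate 2. In PreL the deposited ERCC scale put it at 0.06 (adjusted p = 0.82). The 12 genes of a replication and proliferation list moved beside it in SPG, with all 12 log2 fold changes negative, 1 called lower, and a summed level of 2940 to 3070 RPM in WT and 2130 to 2340 in SKO, and whether this had a part in the *Brca1* values was not tested.

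In SPG *Topbp1*, *Chek1* and *Chek2* also had every SKO library below every WT library, and *Mdc1* every one above, while 14.4% and 15.2% of genes separated in these directions. *Chek2* held 567 to 646 normalised reads in WT SPG and 351 to 536 in SKO SPG (log2 fold change −0.46, adjusted p = 0.258), the opposite side from LZ. *Mdc1* held 1040 to 1250 and 1310 to 1550 (log2 fold change 0.34, adjusted p = 0.214). For *Topbp1* and *Chek1* the values were −0.25 (adjusted p = 0.225) and −0.32 (adjusted p = 0.206). In PreL *Rnf8* separated as well, with 1300 to 1900 normalised reads in WT and 1200 to 1250 in SKO (log2 fold change −0.36, adjusted p = 0.146), though not as RPKM.

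The next question was how the 9 genes differed between the sorted stages in WT. From SPG to PreL only *Mdc1* was called, from 1040 to 1250 normalised reads to 2280 to 2720 (log2 fold change 1.12, SE 0.15, adjusted p = 0.00462, with 3.75% of genes called, 2.54% higher and 1.21% lower), and it was called under all 18 alternative settings. *Atr* had a log2 change of 0.56 (adjusted p = 0.0227), under the fold threshold, and an adjusted p above 0.05 without WT SPG replicate 1 or 3 or WT PreL replicate 2 (0.0651 to 0.0966). From PreL to LZ, *Atm* (−1.3, adjusted p = 0.00301), *Chek1* (−1.13, adjusted p = 0.0145) and *Brca1* (−1.38, adjusted p = 0.00456) were called lower, where 7.8% of genes were called lower and 26.6% in either direction, and *Topbp1* stood at −0.9 (adjusted p = 0.0118), short of the fold threshold. For each of these 4, both LZ libraries lay below all 3 PreL libraries, as they did for 28.8% of genes. The *Chek1* call was lost without either WT LZ library (adjusted p 0.0995 and 0.0525) or WT PreL replicate 4 (log2 fold change −0.94), and *Topbp1* had an adjusted p of 0.0579 without WT LZ replicate 2 and was called without WT LZ replicate 3 (−1.12, adjusted p = 0.0306). With trends of transcript length and GC content removed, *Brca1* alone of the 3 was called (−1.19), while *Chek1* (−0.93) and *Atm* were short of the fold threshold. These values are relative to the typical gene: the deposited ERCC scale put all 4 at 0.44 to 0.93, above 0 and below the median of 1.86 over all genes on that scale. *Atr*, *Atrip*, *Mdc1*, *Chek2* and *Rnf8* had log2 changes of −0.32 to 0.27 with adjusted p of at least 0.311.

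In SKO, which shares no library with the WT series, no member was called by limma from SPG to PreL, beside 2.59% of genes (1.63% higher), with 4 of the 9 at an unadjusted p under 0.05 and 1, *Mdc1*, called by edgeR and by DESeq2 (log2 fold change 1.03 by DESeq2). *Mdc1* held 1310 to 1550 normalised reads in SPG and 2240 to 3570 in PreL (log2 fold change 0.99, SE 0.18, adjusted p = 0.014), and it was called without SKO PreL replicate 2 (1.16). *Brca1* had 0.67 (adjusted p = 0.0468). Leaving out 1 library gave *Mdc1* an adjusted p of up to 0.0618 and *Brca1* one of up to 0.223. From PreL to LZ, *Chek2* was called higher (2.6, SE 0.17, adjusted p = 3.14e-05, beside 10.6% of genes higher and 6.93% lower), with every setting giving the call. *Rnf8* (−0.78, adjusted p = 0.00192), *Atr* (−0.65, adjusted p = 0.0425) and *Atm* (−0.38, adjusted p = 0.0474) were lower but short of the fold threshold, and the last 2 had an adjusted p above 0.05 without some single libraries (up to 0.134). The ERCC scale put these 3 at 0.06, 0.2 and 0.47, on the other side of 0. *Atrip* had −0.92 (adjusted p = 0.056) and was called without SKO LZ replicate 3 (−1.18, adjusted p = 0.0398). *Brca1*, *Chek1* and *Topbp1* had −0.14, −0.24 and 0.22, with adjusted p of 0.243 to 0.462.

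**Figure D3:**
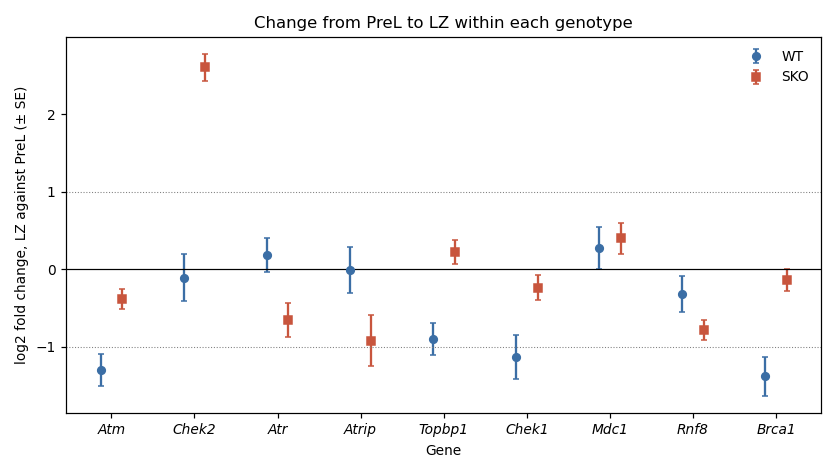
log2 fold change from PreL to LZ (vertical axis, bars are the standard error) of each gene within WT (blue) and within SKO (red), after rescaling so that the typical gene is level; dotted lines mark −1 and 1. *Atm*, *Chek1* and *Brca1* lie below −1 in WT only, and *Chek2* lies at 2.6 in SKO.

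Whether the change from PreL to LZ differed between genotypes was tested as an interaction (adjusted p under 0.05, with no fold threshold). It was called for 6 of the 9, where 38.2% of 13530 genes were called, 23.1% negative and 15.1% positive. *Chek2* (2.59, SE 0.3, adjusted p = 1.6e-06), *Brca1* (1.14, adjusted p = 0.00499), *Topbp1* (1.01, adjusted p = 0.00109), *Atm* (0.81, adjusted p = 0.00627) and *Chek1* (0.78, adjusted p = 0.0361) were positive, so that the log2 change in SKO lay above that in WT. The comparisons of genotype in LZ and of stage in each genotype use these same libraries and are not independent of the interaction. *Atr* was negative (−0.94, adjusted p = 0.0104). *Atrip* (−1.01, adjusted p = 0.074), *Rnf8* (−0.57, adjusted p = 0.0564) and *Mdc1* (0.02, adjusted p = 0.962) were not called. The median of the 9 was 0.78, against −0.31 over all genes tested. The *Atr* call was lost without WT LZ replicate 3 (−0.61, adjusted p = 0.101) and the *Chek1* call without any of 6 single libraries (adjusted p up to 0.173). In all, the *Chek1* call held under 11 of 21 alternative settings. On the ERCC scale the calls of *Atm*, *Topbp1*, *Chek1* and *Brca1* were lost (−0.06, 0.14, −0.09 and 0.27) and those of *Chek2* (1.75) and *Atr* (−1.81) were not, while *Atrip* (−1.89, adjusted p = 0.00294), *Rnf8* (−1.44, adjusted p = 0.000425) and *Mdc1* (−0.85, adjusted p = 0.0255) were called, so that the 6 calls, 5 positive and 1 negative, became 1 positive and 4 negative. Between SPG and PreL the same test called 0 of 9 by limma, edgeR and DESeq2, with 1 at an unadjusted p under 0.05 and 0.362% of all genes called.

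Ratios within a library do not depend on scaling between libraries, but they do not show which of the 2 genes differed. Their size also depends on the transcript lengths used. The RPKM of *Chek2* was 0.182 to 0.628 times that of *Chek1* in the 14 libraries outside SKO LZ, and 3.49, 1.79 and 2.16 times it in the 3 SKO LZ libraries. The order of the effector kinases was thus turned round in SKO LZ alone among the 6 groups. *Atr* stood at 1.86 to 3.44 times *Atm* in the SPG and PreL libraries, at 5.59 and 7.98 times in WT LZ, and at 2.2 to 2.62 times in SKO LZ. The ratio of *Atr* to *Topbp1* was 0.95 to 1.27 in the SPG libraries and 1.2 to 2.06 in PreL. It was 2.54 and 2.99 in WT LZ and 0.902 to 1.08 in SKO LZ. *Atr* exceeded its partner *Atrip* 5.6 to 10.3 times in WT, 8.97 to 14.9 times in SKO PreL and 12.3 to 23.5 times in SKO LZ.

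**Figure D4:**
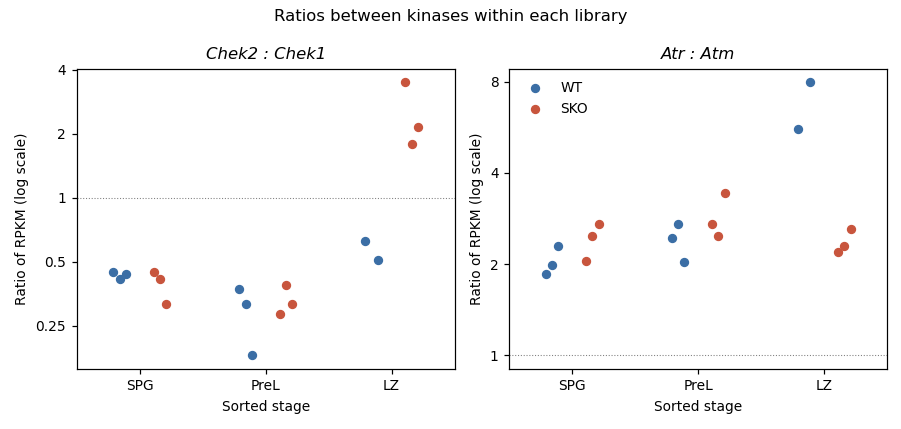
Ratio of RPKM between 2 kinases within each library (vertical axes, log scale) by sorted stage and genotype (WT blue, SKO red, 1 point per library): *Chek2* over *Chek1* on the left and *Atr* over *Atm* on the right. The 3 SKO LZ libraries lie at 1.79 to 3.49 on the left, above the dotted line at 1, and the 2 WT LZ libraries lie highest on the right, at 5.59 and 7.98.

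Within the 8 WT libraries, *Atr* and *Mdc1* had a Pearson r of 0.981 on log2 values, *Atm* and *Brca1* 0.966 and *Atm* and *Topbp1* 0.948. Within the 9 SKO libraries the same pairs had 0.385, 0.464 and 0.311. These pairs had the highest r within WT among all pairs of the members, so lower values in SKO could follow from that choice alone. Other pairs had a higher r within SKO than within WT. Among them were *Atm* and *Atr* (−0.301 in WT and 0.877 in SKO) and *Mdc1* and *Brca1* (−0.0867 and 0.818). For *Topbp1* and *Mdc1* the values were −0.172 in WT and 0.766 in SKO. Over all 17 libraries *Chek2* and *Rnf8* had r = −0.903, with −0.166 within WT and −0.958 within SKO. These libraries fall into 6 groups by stage and genotype and share the rescaling, so the values describe the groups as much as the genes. Among 10255 genes that averaged 50 reads or more, the closest in pattern over the 17 libraries were *Ttf1* (r = 0.985) and *Trip4* (0.967) for *Chek2*, *Ddx24* (0.951) and *Nedd8* (0.933) for *Atrip*, *Eps15* (0.95) and *Zhx1* (0.941) for *Atr*, *Clic4* (0.958) and *Yipf4* (0.947) for *Mdc1*, and *Zc3h14* (0.934) and *Supt16h* (0.932) for *Rnf8*. For *Brca1* it was *Clspn* (0.897), which codes for claspin, the adaptor between ATR and CHEK1, followed by *2810417H13Rik* (0.885). *Smc2* (0.907) and *Rcn2* (0.906) were nearest to *Topbp1*, and *Rnf11* (0.919) and *Zbtb41* (0.898) to *Chek1*.

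The partners of these 9 in the pathway were drawn from 49 listed genes, of which 46 were in the table and 45 were tested. In SKO against WT, 0 were called lower and 1 higher in SPG, 0 in either direction in PreL, and 5 lower and 9 higher in LZ. Of all genes tested, 2.06% were called lower and 3.95% higher in SPG, 5.83% and 5.32% in PreL, and 25.8% and 13.4% in LZ (39.1% in either direction), so the total in LZ was no higher than the background. The call in SPG was *Hormad2*, a meiotic axis protein needed to bring ATR to unsynapsed chromosomes (1.13, SE 0.25, adjusted p = 0.0116), and in LZ the same gene was called lower (−1.32, SE 0.33, adjusted p = 0.0127). The SPG call ended on the ERCC scale (0.87) and with the replicate numbers as a block (0.83, adjusted p = 0.0764). The adjusted p of *Hormad2* was 0.0539 in SPG without SKO SPG replicate 4, its log2 fold change 0.88 without WT SPG replicate 2, and in LZ the adjusted p was 0.108 and 0.121 without WT LZ replicate 2 or 3. For PreL, 19 of the 45 had an unadjusted p under 0.05, and edgeR and DESeq2 also called 0. The median log2 fold change in LZ was 0.13, against −0.13 over all genes.

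The pathway genes named next were picked as those called in LZ with the largest folds in each direction. In LZ 5 of the 9 ubiquitin and chromatin mediators tested, and 4 of the 7 BRCA1 partners, were not called. On the path from MDC1 and RNF8 to ubiquitinated chromatin, *Rnf168*, the ligase that extends the RNF8 mark, was 10.6-fold higher in SKO LZ than in WT LZ (3.42, SE 0.27, adjusted p = 7.14e-05). In the same comparison *Ube2n*, the conjugating enzyme that works with RNF8, had a ratio of 0.352 (−1.5, SE 0.15, adjusted p = 0.000157). *H2afx*, which codes for H2AX, had one of 0.3 (−1.72, SE 0.23, adjusted p = 0.000646). *Paxip1*, another BRCT-domain mediator, was 4.87-fold higher (2.27, adjusted p = 0.000176). Among BRCA1 partners, the helicase gene *Brip1* was 8.74-fold higher (3.1, SE 0.25, adjusted p = 7.91e-05) and *Bre*, a scaffold of the BRCA1-A complex, had a ratio of 0.249 (−2, SE 0.22, adjusted p = 0.000306).

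For the passage from PreL to LZ, 10 of the 45 were called lower and 0 higher in WT, where 7.8% and 18.8% of all genes were, among them *Clspn* (−1.5, adjusted p = 0.00251) and *Bard1*, the obligate partner of BRCA1 (−1.21, adjusted p = 0.00839). *Clspn* and *Bard1* were named after their values had been seen. In SKO, 5 were called lower and 5 higher, beside 6.93% and 10.6% of all genes. The interaction called 8 negative and 12 positive, beside 23.1% and 15.1%, with *Clspn* at 1.14 (adjusted p = 0.000101) and *Bard1* at 0.86 (adjusted p = 0.0204), on the same side as *Chek1* and *Brca1*. The *Bard1* interaction lost its call without WT PreL replicate 4, WT LZ replicate 2 or SKO LZ replicate 2 (adjusted p up to 0.0705), and on the ERCC scale *Clspn* was at 0.27 and *Bard1* at −0.01. On the ERCC scale 0 of the 45 were called lower and 33 higher in WT, where 15 of 13759 genes were called lower and 10992 higher. The share of the 45 called higher was thus no larger than that over all genes. Of the replication and proliferation list, 6 of 12 were called lower in WT from PreL to LZ and 0 in SKO, with 1 called higher in each, with 3380 to 3930 RPM in WT PreL and 2340 to 2630 in WT LZ against 3000 to 3200 and 2140 to 2590 in SKO, and the part of this in the values of *Atm*, *Chek1*, *Topbp1* and *Brca1* was not tested.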

How the data were processed

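The authors sequenced Smart-seq2 cDNA of sorted cells with ERCC spike-in RNA, paired-end, without molecular identifiers and without a stated strand. Uniquely mapped reads were counted per gene and multiplied by a calibration factor per library from ERCC and cell input. The submitters' processing notes name TopHat2 2.1.1, HTSeq 0.11.2, Cufflinks 2.2.1 and DESeq2, and the study gives mm10. The deposited values (unit: signal) are therefore calibrated counts, and 100% of them, within 0.1 of a read, came out as whole reads after division by the factor.

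Values were rescaled within each comparison by DESeq2-type size factors (medians of ratios) (all 17 for printed levels), filtered at a mean of 10 reads, set to log2(value + 10) and tested with limma 3.58.1 in R 4.3.3, two-sided, with Benjamini-Hochberg adjustment over all genes tested. The scale understates folds of low genes. Calls needed an adjusted p under 0.05 and, except for interactions, an absolute log2 fold change above 1. edgeR 4.0.16 and DESeq2 1.42.0 ran on the recovered reads as alternatives, beside other scalings, filters, pseudocounts, left-out libraries and a replicate block. RPKM used principal transcripts of GENCODE vM21. The rank of the closest genes used log2 values and a mean of 50 reads, and is not reported here for *Atm*. The procedure was tested on simulated data. The members, pathway and marker lists were chosen with earlier results of these data known. The main tests did not pair the samples by replicate number. Between libraries of the same number, correlations of the deviations from the group means ran from -0.0997 to 0.131. Libraries of different numbers were not compared in that check, so it cannot exclude pairing. No 2 libraries of 1 group agreed within sampling noise.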

Additional observations from a re-analysis of the deposited data

Results flagged for a closer look

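The effect of genotype differed between PreL and LZ by the interaction test for 6 of the 9 genes, where 38.2% of 13530 genes were called, and 4 of these 6 calls (*Atm*, *Topbp1*, *Chek1*, *Brca1*) were lost on the ERCC scale. Given as the effect in LZ minus that in PreL on the log2 scale, the values were 2.59 for *Chek2*, 1.14 for *Brca1*, 1.01 for *Topbp1*, 0.81 for *Atm*, 0.78 for *Chek1* and −0.94 for *Atr*. The groups of 2 or 3 libraries were too small for a test of single outlying samples.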

How the results depend on the processing

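Counts of called members under the other settings were as follows, and the cause was not tested unless named. Dropping the fold threshold, which by construction adds calls, gave 1 in SPG, 1 in PreL and 7 in LZ between genotypes, 2 from SPG to PreL in WT, 2 in SKO, and 4 from PreL to LZ in SKO. Over all genes, that setting called 622 lower and 799 higher of 12846 in SPG, and 4273 and 2716 of 13724 in LZ. From SPG to PreL in WT it called 382 and 540 of 12657. Removing length and GC trends gave 4 in LZ between genotypes and 1 from PreL to LZ in WT. From SPG to PreL in SKO, edgeR, DESeq2 and the replicate block each gave 1. With the numbers as block no other count of called members moved by over 1.5 times; 3 of 6 SKO PreL and LZ libraries correlated best with their own number, and WT PreL and LZ share only 1 number, so no block could be fitted there. Leaving out 1 library gave 1 to 3 members in LZ between genotypes (main 2), 0 to 1 from SPG to PreL in SKO and 1 to 2 from PreL to LZ in SKO; 1 in LZ was without WT LZ replicate 3, 1 from SPG to PreL without SKO PreL replicate 2, and 2 from PreL to LZ without SKO LZ replicate 3.

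The ERCC-calibrated scale gave 1 member in SPG between genotypes, 5 from PreL to LZ in WT, 7 from SPG to PreL in SKO, 3 from PreL to LZ in SKO and 7 for the interaction of SPG and PreL, and put 0 members at their highest in WT PreL, against 5. Of all genes, that scale called 578 lower and 399 higher of 12846 in SPG between genotypes. It called 15 and 10992 of 13759 from PreL to LZ in WT, and 30 and 5657 of 12882 from SPG to PreL in SKO. From PreL to LZ in SKO these numbers were 152 and 4409 of 12477. The interaction of SPG and PreL had 147 and 5938 of 13530. The ERCC scale shifted the median of all genes by -0.25, 0.69 and -0.12 between genotypes in SPG, PreL and LZ, by 0.07 and 1.73 over the 2 WT steps, by 0.98 and 0.82 over the 2 SKO steps, and by 0.95 and -0.81 in the 2 interactions. The share of lower among called genes went from 34.3% to 59.2% in SPG, 52.3% to 14.5% in PreL and 65.8% to 71.2% in LZ. Reversed on that scale were, between genotypes in PreL, *Topbp1* (0.36) and *Rnf8* (0.36). From PreL to LZ in WT these were *Atm* (0.53), *Atrip* (1.79), *Topbp1* (0.93), *Chek1* (0.7), *Chek2* (1.69), *Brca1* (0.44), *Rnf8* (1.5), *Nat10* (1.53), *Clspn* (0.33) and *Bard1* (0.61). In SKO these were *Rnf8* (0.79) and *Nat10* (0.49) from SPG to PreL, and *Atm* (0.47), *Chek1* (0.6) and *Nat10* (0.52) from PreL to LZ. In the SPG and PreL interaction they were *Atrip* (0.47), *Topbp1* (0.88), *Mdc1* (0.83), *Rnf8* (0.65) and *Nat10* (0.55), and in that of PreL and LZ *Atm* (-0.06), *Mdc1* (-0.85), *Chek1* (-0.09) and *Bard1* (-0.01). Another 70 of 1888 values changed sign with no call on either side and at least 1 of the values compared within 1 SE of 0. Over all settings, genes called lower and higher numbered 118 to 622 and 305 to 799 in SPG between genotypes (265 and 508 as reported), 390 to 1318 and 180 to 3459 in PreL (765 and 699), and 2392 to 4273 and 1367 to 2716 in LZ (3534 and 1838). Of the other pathway genes, 4 to 9 were called lower and 7 to 11 higher in LZ. The 2 WT LZ libraries and the 17 to 54 *Atrip* reads in SKO LZ limit the precision in LZ.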
